A study of Homo sapiens with 4 samples.

Results

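The genes described here are 10 that build and control pericellular proteolysis, the cutting of matrix and surface proteins just outside the cell. They are 5 matrix metalloproteinases (MMP1, MMP2, MMP3, MMP10 and MMP14), 3 tissue inhibitors of metalloproteinases (TIMP1, TIMP2 and TIMP3) and both plasminogen activators (PLAU and PLAT). Members were taken by symbol, and all 10 were found among the 23459 genes listed in each count file. The cells were hTERT RPE-1, a telomerase-immortalized human retinal pigment epithelium line of wild type genotype. In every library the cells had been serum-starved and then exposed to 200 μM merbarone, a catalytic inhibitor of DNA topoisomerase II, and there were 2 libraries after 4 h of exposure and 2 after 8 h. Untreated cells were not analysed here, so the question answered is how these genes moved from 4 h to 8 h of exposure, and time with the drug cannot be told apart from time in low-serum medium. The libraries held between 8064450 and 10324697 reads counted on genes. All values come from 1 line, and both times share the starvation and the dose.

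As background, matrix metalloproteinases are zinc-dependent proteases, most of them secreted as inactive zymogens that need a cut before they act. MMP2, a gelatinase, is activated at the cell surface by MMP14, a membrane-anchored enzyme, with TIMP2 serving as the bridge between them at low levels and as an inhibitor of both at high levels. MMP1 is an interstitial collagenase, and MMP3 and MMP10 are stromelysins, all encoded side by side with other family members in a cluster on chromosome 11. PLAU (urokinase) and PLAT (tissue-type activator) cut plasminogen to plasmin, which in turn degrades matrix and activates several metalloproteinase zymogens. TIMP3 stays bound to the matrix and is known in the retinal pigment epithelium for the mutations that cause Sorsby fundus dystrophy.

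The members fell into very different ranges. MMP1, MMP3 and MMP10 had a count of 0 in all 4 libraries, TIMP3 was low, and MMP2 was among the most abundant transcripts of these cells. The counts of TIMP3 were between 27 and 55 per library. The other 5 lay between these extremes. The filter, a CPM (count scaled for library size) above 1 in at least 2 libraries, retained 7 of the 10 members, and the 3 without a count could not be tested.

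**Figure D1:**
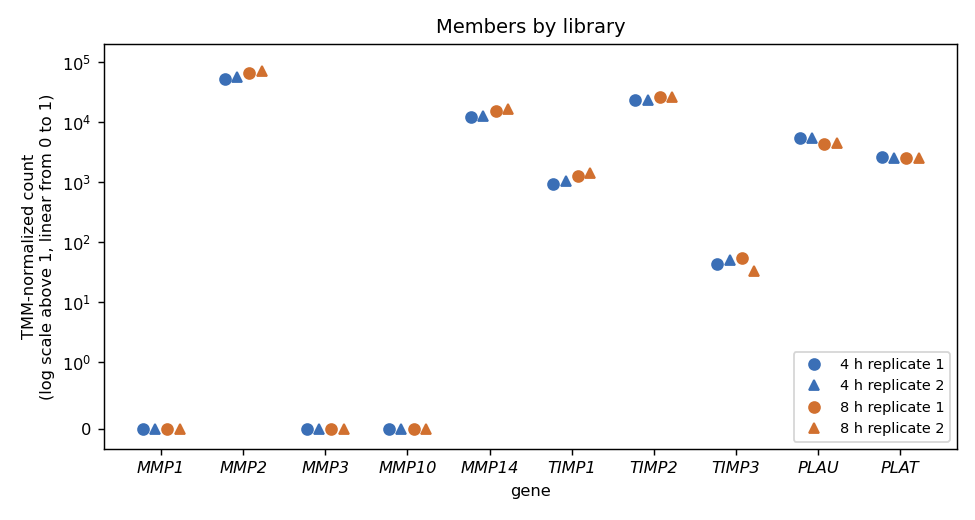
TMM-normalized count (scaled by trimmed mean of M values to the mean library) of each member (vertical axis, logarithmic above 1 and linear from 0 to 1) in the 4 libraries, with colour for the time and shape for the replicate. MMP1, MMP3 and MMP10 sit at 0 in every library, MMP2 lies at 52839 or above, and PLAU is the called member whose 8 h points are below its 4 h points.

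Promoter sequence was set beside these levels for 5 members, MMP10, MMP14, TIMP1, TIMP3 and PLAU, from the RefSeq promoter table of GRCh38.p14. The remaining members are MMP1, MMP2, MMP3, TIMP2 and PLAT. The 250 bases before the start were searched on both strands for 5 short motifs, and the share of all 35116 promoter windows of the same length that hold each one was counted. The AP-1 letters TGANTCA stood in 6.57% of these windows. An ETS core, spelled CAGGAA, stood in 24.1% of them, and the SP1 box GGGCGG was the most common of the 5, in 42.6%. The NF-kB letters GGGANTTCC were rare, in 1.59% of windows. A TATA box, searched as TATAAA, was found in 10.7%. Capitals below mark every match, and matches of different motifs did not overlap. The windows shown are those of a gene without a count, MMP10 (chr11:102780629-102780878, minus strand), of MMP14 (chr14:22836335-22836584, plus strand) and TIMP1 (chrX:47582186-47582435, plus strand), which rose, and of PLAU (chr10:73910882-73911131, plus strand), which fell.
MMP10: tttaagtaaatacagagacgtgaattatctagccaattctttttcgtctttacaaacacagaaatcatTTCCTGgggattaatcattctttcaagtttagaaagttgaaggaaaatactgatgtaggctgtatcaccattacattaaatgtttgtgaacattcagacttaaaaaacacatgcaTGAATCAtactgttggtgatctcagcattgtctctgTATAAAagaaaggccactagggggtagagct
MMP14: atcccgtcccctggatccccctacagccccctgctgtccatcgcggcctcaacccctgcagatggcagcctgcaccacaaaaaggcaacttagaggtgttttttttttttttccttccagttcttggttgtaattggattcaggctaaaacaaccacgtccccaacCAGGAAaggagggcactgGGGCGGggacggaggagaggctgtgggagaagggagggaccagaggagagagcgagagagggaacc
TIMP1: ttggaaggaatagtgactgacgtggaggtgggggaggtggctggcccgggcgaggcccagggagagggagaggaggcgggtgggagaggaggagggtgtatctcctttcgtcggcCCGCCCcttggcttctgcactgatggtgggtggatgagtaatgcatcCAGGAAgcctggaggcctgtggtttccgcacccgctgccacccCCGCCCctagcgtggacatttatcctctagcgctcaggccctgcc
PLAU: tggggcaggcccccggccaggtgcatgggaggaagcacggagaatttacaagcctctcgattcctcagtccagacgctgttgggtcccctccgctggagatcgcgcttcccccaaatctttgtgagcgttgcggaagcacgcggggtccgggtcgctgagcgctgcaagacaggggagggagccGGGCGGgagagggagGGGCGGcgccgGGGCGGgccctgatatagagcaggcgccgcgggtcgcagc

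MMP10, with no count, was alone among these 5 members in holding the AP-1 letters, at −67 to −61 from the start, and TATA, at −31 to −26. Its window held no SP1 match. By contrast, SP1 letters stood once in the MMP14 window, 2 times in that of TIMP1, 3 times in the PLAU window shown and 5 times in that of TIMP3, whose counts were low. A further PLAU window, at a start upstream of the one shown, held none of the 5 motifs. The ETS core stood once each in the windows of MMP10, MMP14 and TIMP1. A match is a run of letters in the window and not a measured binding site.

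Since reads are counted over whole transcripts, levels between genes were compared only as TMM-normalized counts per kb of the canonical transcript. On this per-length scale MMP2 was highest, at 17581 ± 2502 (SD over the 4 libraries), and ranked 14 among the 12352 retained genes with a known length. TIMP2 followed at 6739 ± 516.9 and MMP14 at 3799 ± 547.9 per kb. PLAU came next with 2080 ± 245.5 per kb, TIMP1 with 1508 ± 289.2 and PLAT with 828.3 ± 16.3. TIMP3 closed the order at 9.85 ± 2.03 per kb, 84.1 times lower than PLAT. The 4 libraries of each gene lay apart from those of its neighbours in this order. The narrowest gap was between PLAU, whose lowest library stood at 1857 per kb, and TIMP1, whose highest stood at 1837, and it was smaller than the spread of either gene. With the longest annotated transcript in place of the canonical one, TIMP1 stood at 1059 per kb and its libraries, from 849 to 1290, overlapped those of PLAT, from 816 to 852.

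The comparison of TIMP1 with the rest depended on how its reads could map. The authors aligned 75-base reads without gaps, so a read that crosses a splice junction is lost. Of the possible read starts, 51.8% lay within 1 exon in the canonical transcript of TIMP1 (769 bases in 6 exons), against 91.7% for TIMP2, 93.5% for TIMP3, 81.6% for MMP14, 74.2% for MMP2, 69.4% for PLAU and 68.9% for PLAT. Per 1000 of these junction-free starts, a scale added after seeing the data, TIMP1 stood at 3222 ± 617.7 and PLAU at 3094 ± 365.3, means 1.04 times apart whose libraries overlapped, so the order of these genes was not settled on this scale. At 4 h PLAU was above TIMP1, with 3380 and 3439 against 2583 and 2843, and at 8 h TIMP1 was above PLAU, with 3538 and 3924 against 2762 and 2795. The other 5 members kept their places. These shares are the same in every library and do not enter the comparison between times.

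**Figure D2:**
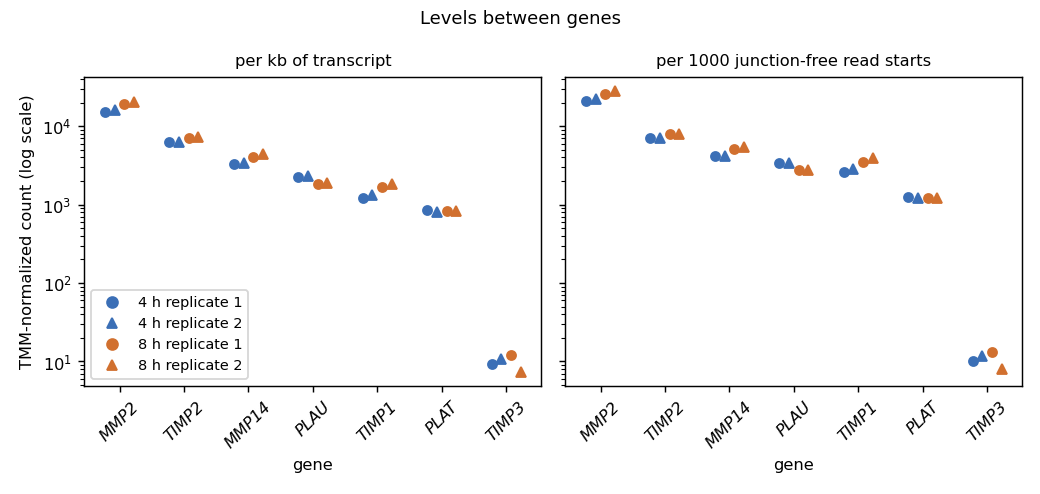
TMM-normalized count of the 7 detected members (vertical axis, logarithmic) per kb of transcript on the left and per 1000 junction-free read starts on the right, with 1 point per library. MMP2 is highest and TIMP3 lowest on both scales, and TIMP1 and PLAU lie side by side.

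MMP1 (chromosome 11, 102660132 to 102668891, hg19, minus strand), MMP3 (102706532 to 102714340, minus strand) and MMP10 (102641233 to 102651359, minus strand) had no reads. A count of 0 in the largest library allows a level of up to 0.291 CPM for each of them, and of up to 0.372 CPM in the smallest (the level of 3 counts, for counting error only). Over the 38242668 counts of all libraries the same limit is 0.0784 CPM. Having no count was not rare, since 22.5% of the 18816 protein-coding genes listed had none in any library.

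The rest of the cluster was also at or next to 0. Within 1000 kb of the MMP1 start, 9 protein-coding MMP genes are listed, with starts spread over 425.0 kb, and together they had 1 count, a read of MMP13 in replicate 2 at 8 h. The 8 others, MMP7, MMP20, MMP27, MMP8, MMP10, MMP1, MMP3 and MMP12, had none. Genes next to the cluster on both sides were counted: TMEM123 had 3845 and 3044 counts at 4 h, against 3564 and 2974 at 8 h, and DCUN1D5 had 311 and 269 at 4 h, against 297 and 208 at 8 h. Reads were thus counted up to both edges of the cluster. WTAPP1, a transcribed pseudogene on the opposite strand that shares 223 exon bases with MMP1, also had 0 counts in each library.

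**Figure D3:**
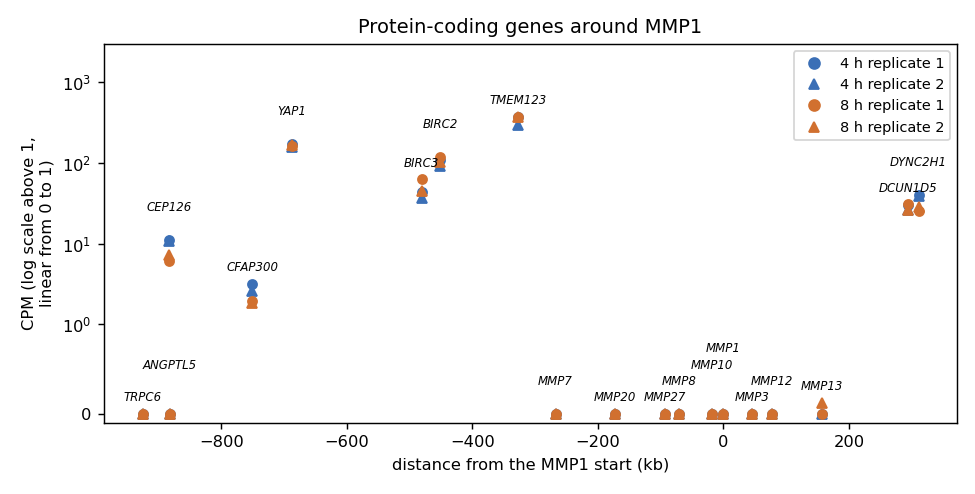
CPM of the 19 protein-coding genes within 1000 kb of MMP1 (vertical axis, logarithmic above 1 and linear from 0 to 1) against the distance of their starts from the MMP1 start in kb, with 1 point per library. The 9 MMP genes lie at or next to 0, between the expressed genes TMEM123 on one side and DCUN1D5 on the other.

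Between 4 h and 8 h, 4 of the 7 retained members rose, 1 fell and 2 did not pass the test, which was the quasi-likelihood test of edgeR over all 12559 retained genes with a Benjamini-Hochberg adjusted p below 0.05. MMP2, MMP14, TIMP1 and TIMP2 were higher at 8 h, by 14.2% to 37.4%, and PLAU was lower. At this threshold 38.8% of all retained genes were called, 19.9% higher and 18.8% lower. None of the members was a DEG in the stricter sense that adds an absolute log2FC above 1, which 5.33% of all genes were. In 5 of the 7 members, the ones called, the 8 h libraries did not overlap those of 4 h, against 69.7% of all genes. The median log2FC over the 7 retained members was 0.19, beside 0.00 for all retained genes.

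Abundance moved with these directions. With all retained genes cut into 5 equal classes by mean count, 6 of the 7 retained members, all but TIMP3, were in the top class, where the median log2FC was 0.13, 39.4% of genes were called higher and 14.8% lower. After each library was corrected for its trend with mean log2-CPM, 3 members were called, MMP14 and TIMP1 higher and PLAU lower. With library size alone in place of TMM, a setting that shifts the median log2FC of all genes to −0.11 and turns 2500 higher and 2367 lower calls into 1698 and 3289, 4 members were called. In bulk RNA, fewer cells making a transcript and less transcript per cell cannot be told apart.

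MMP2 (chromosome 16, 55423612 to 55540603, plus strand) had normalized counts of 52839 and 56047 at 4 h, against 66716 and 71517 at 8 h. Both 8 h libraries were above both 4 h libraries. Its share of each library was 0.572% and 0.609% at 4 h, against 0.677% and 0.716% at 8 h. The log2FC of MMP2 was 0.34 (SE, the standard error, 0.06, edgeR adjusted p = 0.000254). The call was lost with the correction for the trend with abundance, where the log2FC was 0.13 (edgeR adjusted p = 0.0946). MMP2 shares 174 exon bases with an annotated gene of the same strand that was not among the genes counted.

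MMP14 (chromosome 14, 23305769 to 23318250, plus strand), the surface activator of the MMP2 zymogen, had 12217 and 12486 normalized counts at 4 h, against 15213 and 16326 at 8 h. It rose by 27.7%, nearly the size of the MMP2 change, with log2FC 0.35 (SE 0.07, edgeR adjusted p = 0.000357). This call held in all 12 alternatives, with an adjusted p of at most 0.046, while the log2FC ran from 0.17, with the correction for the trend with abundance, to 0.40. The ratio of MMP2 to MMP14 counts within a library, which a single scaling factor per library leaves as it is, was 4.33 and 4.49 at 4 h, against 4.39 and 4.38 at 8 h. These ratios overlapped between the times.

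TIMP2 (chromosome 17, 76849059 to 76921469, minus strand), the inhibitor that also joins MMP14 to the MMP2 zymogen, went from 22989 and 22969 normalized counts at 4 h to 26113 and 26374 at 8 h. The rise of 14.2% was the smallest among the called members (log2FC 0.19, SE 0.06, edgeR adjusted p = 0.0198). It was also the least stable, since the call was lost with library size alone (log2FC 0.09, edgeR adjusted p = 0.294), with the correction for the trend with abundance (adjusted p = 0.983, log2FC 0.00), without 4 h replicate 1 (adjusted p = 0.170) and without 4 h replicate 2 (adjusted p = 0.152). Counts of MMP2 per TIMP2 count were 2.30 and 2.44 at 4 h, against 2.55 and 2.71 at 8 h, and those of MMP14 per TIMP2 count were 0.531 and 0.544 at 4 h, against 0.583 and 0.619 at 8 h. Both proteases were thus higher relative to TIMP2 in each 8 h library than in either 4 h library. TIMP2 shares 224 exon bases with CEP295NL, a gene of the same strand with at most 16 counts in a library. It shares 367 with a long non-coding RNA gene of the opposite strand that was not among the genes counted.

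TIMP1 (chromosome X, 47441807 to 47446188, plus strand), a broad inhibitor of secreted metalloproteinases, rose the most among the members. Its normalized count was 929.9 and 1023 at 4 h, against 1274 and 1413 at 8 h, an increase of 37.4% (log2FC 0.46, SE 0.09, edgeR adjusted p = 0.000381). The call held in all 12 alternatives, in which the log2FC ran from 0.35 to 0.53. Counts of TIMP1 per TIMP2 count were 0.0405 and 0.0446 at 4 h, against 0.0488 and 0.0536 at 8 h. TIMP1 lies within SYN1, a gene of the opposite strand with no shared exon base and at most 4 counts in a library.

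TIMP3 (chromosome 22, 33197691 to 33259028, plus strand), the matrix-bound inhibitor, rested on 48 and 55 counts at 4 h, against 54 and 27 at 8 h. As normalized counts, the 8 h libraries (55.0 and 33.4) lay on both sides of the 4 h libraries (42.9 and 49.7). Its log2FC was −0.04, with a 95% interval from −0.58 to 0.50 (edgeR adjusted p = 0.919). A rise or a fall within that interval therefore remained possible.

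PLAU (chromosome 10, 75668935 to 75677254, plus strand), which encodes urokinase, was the member that fell. Its normalized count went from 5324 and 5416 at 4 h to 4350 and 4402 at 8 h, which gives log2FC −0.30 (SE 0.07, edgeR adjusted p = 0.00229). The call held in all 12 alternatives, with log2FC between −0.45 and −0.28. PLAU shares 915 exon bases with C10orf55, a long non-coding RNA gene of the opposite strand, and strand use in the counting was not stated. C10orf55 had 29 and 33 counts at 4 h and 9 in each 8 h library, against at least 3556 for PLAU. How reads in the shared bases were assigned is not known, and the part of this overlap in the PLAU counts was not tested.

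PLAT (chromosome 8, 42032236 to 42065227, minus strand), which encodes the tissue-type activator, was at 2609 and 2499 normalized counts at 4 h, against 2511 and 2527 at 8 h. The 8 h libraries lay within the range of those at 4 h. The log2FC was −0.02, with a 95% interval from −0.17 to 0.13 (edgeR adjusted p = 0.855), and it was not called in any of the 12 alternatives. Counts of PLAU per PLAT count were 2.04 and 2.17 at 4 h, against 1.73 and 1.74 at 8 h. Both activators thus stood closer to each other at 8 h than at 4 h.

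**Figure D4:**
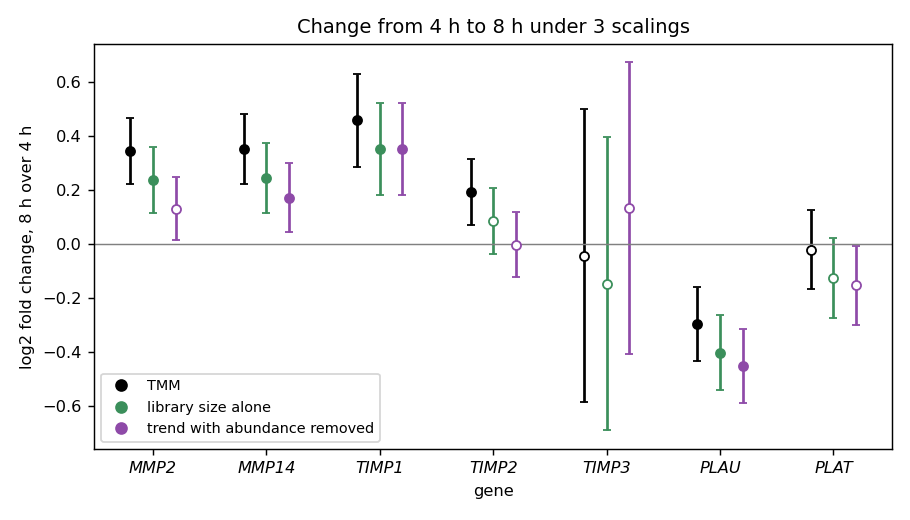
Log2 fold change from 4 h to 8 h of the 7 retained members (vertical axis), with TMM, with library size alone and with the trend with abundance removed. Points are estimates with 95% intervals, filled where the adjusted p was below 0.05: MMP14, TIMP1 and PLAU are filled under all 3 scalings, MMP2 under 2 and TIMP2 under 1.

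Ratios within a library were computed for 8 pairs of genes, and in 7 of them the times did not overlap. Of single retained genes, 69.7% did not overlap either, and no share over other pairs was computed. The pairs were not independent, since PLAU, TIMP2 and MMP2 each stood in several. With 2 libraries per time, the exact two-sided permutation test cannot give a p below 0.333, the value found for each of these 7 pairs (0.381 after Benjamini-Hochberg adjustment over the 8). The widest change was that of PLAU relative to its receptor PLAUR, which holds urokinase at the cell surface. It was 4.67 and 5.51 PLAU counts per PLAUR count at 4 h and 2.77 and 2.80 at 8 h.

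Other genes of the plasminogen system moved upward more often than not. Of the 14 listed, 9 were retained, 6 rose and none fell, with a median log2FC of 0.43. PLAUR rose from 1139 and 982.8 normalized counts to 1571 in both 8 h libraries (log2FC 0.57, SE 0.09), the opposite direction to PLAU. Among the inhibitors, SERPINE2 (protease nexin-1, which blocks urokinase and other serine proteases) rose from 3684 and 3546 to 5184 and 5738, with a log2FC of 0.59. TFPI2, which inhibits plasmin, rose from 643.8 and 683.8 to 1085 and 1159, with a log2FC of 0.76. SERPINB2, an inhibitor of plasminogen activators, had the largest change of the list and was its DEG, with 37 and 28 raw counts at 4 h, against 95 and 51 at 8 h (log2FC 1.47, SE 0.27). The edgeR adjusted p of these 4 genes was at most 0.000297, and they were called in all 12 alternatives.

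PLG, the gene of plasminogen, had 0 counts in all 4 libraries. The substrate of both activators was therefore not detected as a transcript, at the limits given above for a count of 0.

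A list of 19 genes held other metalloproteinases together with TIMP4. Of these, 9 were retained, 3 rose, 1 fell and 8 had no count in any library, with a median log2FC of 0.39 over the retained genes. MMP15 and MMP16, membrane-anchored like MMP14, rose from 245.9 and 268.3 to 361.8 and 368.9 normalized counts (log2FC 0.51) and from 158.3 and 177.9 to 250.7 and 266.2 (log2FC 0.62), with edgeR adjusted p = 0.00214 and 0.00165. MMP17, also tethered to the membrane, rose from 84.9 and 88.5 to 112.1 and 158.5 (log2FC 0.63, edgeR adjusted p = 0.0168). MMP11, a secreted stromelysin, fell from 330.8 and 345.1 to 251.7 and 279.8 (log2FC −0.35, edgeR adjusted p = 0.0274). The calls of MMP17 and MMP11 held in 8 of 12 alternatives each. That of MMP17 was lost with DESeq2 (adjusted p = 0.0727) and without 4 h replicate 1 (0.110), 4 h replicate 2 (0.0768) or 8 h replicate 2 (0.196), and that of MMP11 with DESeq2 (0.127) and without 4 h replicate 1 (0.0854), 4 h replicate 2 (0.166) or 8 h replicate 1 (0.137). MMP9, the other gelatinase, had at most 2 counts in a library, MMP12 had none, and TIMP4 had between 11 and 17 counts.

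Of 24 activators and other inhibitors of these proteases, 17 were retained, 7 rose and 2 fell, with a median log2FC of 0.17. CLDN1, a tight junction protein reported to promote MMP2 activation by membrane-type enzymes, was a DEG, from 783.3 and 687.4 normalized counts to 1516 and 1494 (log2FC 1.03, SE 0.09, edgeR adjusted p = 3.51e-08). THBS1, which encodes thrombospondin-1, fell from 20887 and 18200 to 11209 and 13233, with a log2FC of −0.68. BSG, an inducer of metalloproteinases, rose from 7758 and 7965 to 9312 and 10500, and CTSB, a lysosomal protease, from 7384 and 7518 to 9262 and 9122. Both of the last calls were lost with the correction for the trend with abundance, at an adjusted p of 0.0788 for BSG and 0.122 for CTSB. RECK, a membrane-anchored inhibitor, had 183.3 and 186.1 at 4 h, against 173.2 and 156.0 at 8 h and did not pass (log2FC −0.16, edgeR adjusted p = 0.415). FURIN, the convertase that activates MMP14, had 2285 and 2413 at 4 h, against 2325 and 3138 at 8 h and did not pass either (log2FC 0.22, edgeR adjusted p = 0.102). The value of FURIN rested on 1 library, with a log2FC of 0.42 without 8 h replicate 1 (adjusted p = 1.28e-05) and −0.01 without 8 h replicate 2.

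The related ADAM and ADAMTS families of surface and secreted proteins were divided. Of 11 ADAM genes, 10 were retained, and ADAM17, the sheddase of tumour necrosis factor, rose (log2FC 0.47) while ADAM19 fell (log2FC −0.41). The other 8 were not called, among them ADAM15 (log2FC 0.19) and ADAM23 (log2FC −0.16), and the median of the list was −0.14. Of 19 ADAMTS genes, 10 were retained, with 3 higher, 1 lower and a median of −0.01. ADAMTS1, a proteoglycan-cutting enzyme, rose from 3678 and 3106 normalized counts to 5023 and 4953 (log2FC 0.56, edgeR adjusted p = 2.47e-05). ADAMTS7 and ADAMTS6 rose, with log2FC 0.59 and 0.36, and ADAMTS12 fell, with a log2FC of −0.33. The calls of ADAMTS6 and ADAMTS12 were the less stable, as ADAMTS6 was lost with DESeq2 (adjusted p = 0.0678), with library size alone (0.0727) and without 4 h replicate 1 (0.088) or replicate 2 (0.0774), and ADAMTS12 with DESeq2 (0.0519) and without 4 h replicate 2 (0.293).

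**Figure D5:**
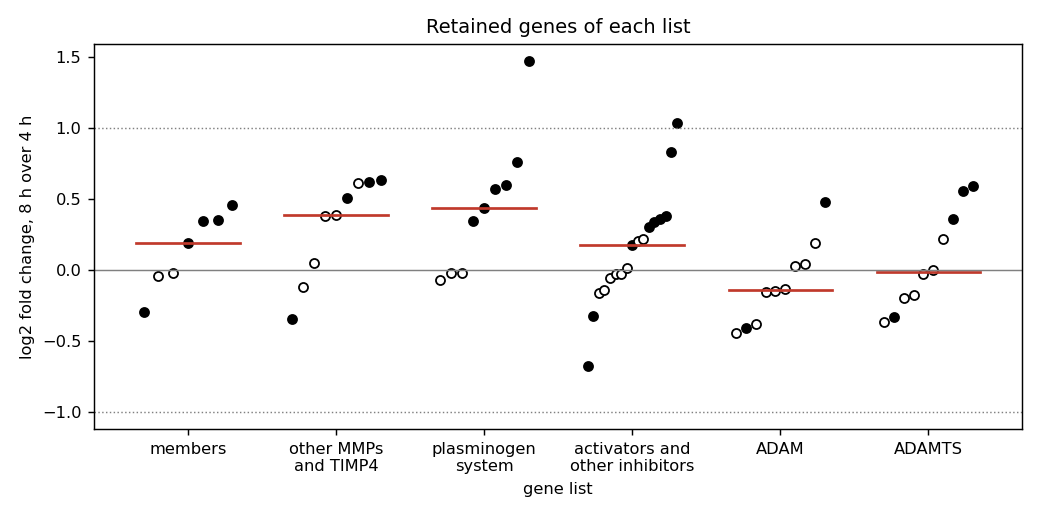
Log2 fold change from 4 h to 8 h (vertical axis) of the retained genes of each list, ordered by value, filled where the adjusted p was below 0.05. Red lines are medians, from 0.43 in the plasminogen system to −0.14 among the ADAM genes, and dotted lines mark an absolute log2FC of 1, which SERPINB2 and CLDN1 passed.

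Over these 5 lists together, 55 of 87 genes were retained. Of these 55, 20 rose and 5 fell, while of all retained genes 19.9% rose and 18.8% fell. In the top class by abundance, which held many of the 55, 39.4% were called higher and 14.8% lower. The split of the 5 lists depended on the scaling. It was 18 higher and 10 lower with library size alone, and 18 higher and 9 lower with the correction for the trend with abundance. The genes whose pattern over the 4 libraries was most like that of TIMP1 were MPG, PLEKHM2 and NCS1, and most like PLAU were FAXDC2, ABR and TRIB1. The root mean square difference of their centred log2 values was between 0.0061 and 0.0138, among 9368 genes whose normalized count averaged 100 or more. With 4 libraries, such likeness mainly restates a similar log2FC.

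The label of the cells was compared with marker genes. Of 13 retinal pigment epithelium markers, 5 were retained, led by the transcription factors MITF (669 to 882 counts per library) and OTX2 (132 to 193). RDH5, a visual cycle gene, had 43 to 75 counts, SERPINF1 had 22 to 30 and the pigment gene PMEL had 7 to 12. The other 8 were not retained, among them TYR and DCT at 0 and RPE65 at 2 to 7 counts. None of the 5 retained markers was called between the times. The keratins of simple epithelium were counted, with 3042 to 3966 counts of KRT8, which was not called. KRT18 fell from 3201 and 3506 normalized counts at 4 h to 2338 and 2386 at 8 h (log2FC −0.51, edgeR adjusted p = 3.72e-05), and its part in the members' changes was not tested. Of 5 markers of leukocytes and endothelium, PTPRC had at most 8 counts, PECAM1 at most 3 and CDH5 at most 2, while CSF1R had 28 to 43 and CD68, a lysosomal protein gene not limited to macrophages, had 575 to 654. The summed normalized level of these 5 was 560.6 and 577.2 at 4 h, against 710.3 and 761.4 at 8 h, nearly all from CD68, and its part was not tested either.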

How the data were processed

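Per the labels and the study's methods, polyadenylated RNA was sequenced from a stranded kit as single reads, checked with FASTQC and mapped to hg19 with Bowtie 1.2.0, keeping reads with a single position. The authors deposited raw counts per gene (NCBI Gene ID) for each library, with no normalization and no pooling. The counting tool, gene annotation and use of strand are not given in the sources used here. Replicates were biological, and samples were grouped by the title of each sample.

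Gene IDs were given symbols with RefSeq (GRCh38.p14), and positions and transcript lengths from GENCODE on GRCh37, matched by symbol. The filter required CPM over 1 in 2 or more libraries, TMM factors were computed, and 8 h was compared with 4 h by the quasi-likelihood test of edgeR 4.0.16 (R 4.3.3) with time as the only term. The standard error is the log2FC divided by the square root of F, and normalized counts are at the mean library size of 9552112. Alternatives were Limma-Voom (limma 3.58.1, the study's own test), DESeq2 1.42.0, other scalings and filters, a replicate block, a correction for the trend with abundance and leaving out each library. The fits were tested on simulated counts. Members and lists were chosen with earlier results of these data known. Named genes were all members, any DEG of the other lists, the smallest adjusted p of each list until 4 were named, and a fixed set of key genes, of which 1 is not reported here by name. Depth was 8064450 to 10324697 counts per library, and the biological coefficient of variation was 6.52%.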

Additional observations from a re-analysis of the deposited data

How the results depend on the processing

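The number of retained members called between 4 h and 8 h was 5 with TMM and edgeR and stayed at 4 or 5 under 11 of the 12 alternatives. It was 3 with the correction for the trend with abundance, where the calls of MMP2 and TIMP2 were lost. With 1 library left out in turn it ranged from 4 to 5, the number of calls among all genes from 3114 (without 4 h replicate 1; 3141 without 4 h replicate 2) to 4828, against 4867, and in these fits the lone library of a time is assumed to vary like the others. Of the 84 log2FC values of the 7 retained members under the 12 alternatives, 75 kept their direction and their side of the threshold, 4 kept the direction only and 5 changed sign. The sign changes were those of TIMP2 and TIMP3 with the correction for the trend with abundance (0.00, at −0.002, and 0.13), of PLAT without 4 h replicate 1 (0.0035, in a range from −0.0498), and of TIMP3 when a library was left out, over a range from −0.47 to 0.25. FURIN ranged from −0.0146 to 0.42 in the same way. The cause was not tested.

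The samples of both times share replicate numbers, but deviations of same-numbered libraries had a correlation of 0.05, and nothing in the labels ties them. With the replicate number as a block, 5493 genes were called, among them all 4867 called without it, 5 members and 27 genes of the other lists in place of 25, and no call of a member changed. Depth limits genes with few or no counts, such as TIMP3 (SE 0.28) and TIMP4 (SE 0.45).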
